A study of Caenorhabditis elegans with 24 samples.

Results

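The genes that encode the nuclear envelope partners of the DNA-binding protein BAF-1 were examined as places where BAF-1 itself binds. They were taken by name as lmn-1, baf-1, unc-84, unc-83, lem-2 and emr-1, which are 6 of the 46374 genes listed in each gene table. Each was read together with the 2 kb bins that overlap it or lie within 20 kb of it, and was set against that neighbourhood. The ratios of 39 other nuclear envelope genes are given for comparison.

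The samples came from Caenorhabditis elegans collected at the L4 larval stage after 48 h of culture at 20 °C, in pools of 4000 animals. Dam::BAF-1(G12T) was read in hypodermis and intestine of animals carrying the baf-1(G12T) allele, and Dam::BAF-1 was read in both tissues of wild-type animals. Each of these 4 groups had 3 replicates, and a GFP::Dam library of the same tissue, genotype and number exists for each, so that 24 libraries stand behind 12 columns of ratios. The G12T fusion was always read in G12T animals, so the fused protein and the genotype of the animal cannot be told apart. All animals carried their Dam construct as a single copy on chromosome II behind an uninduced hsp16.41 promoter, switched on by FLP recombinase under the dpy-7 promoter for the hypodermis and the nhx-2 promoter for the intestine. The Dam fusion constructs also hold a copy of baf-1 or baf-1(G12T), and the GFP::Dam constructs do not.

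In DamID, the bacterial methyltransferase Dam is fused to a chromatin protein and marks the adenine of nearby GATC sites, and the marked fragments are then amplified and sequenced. Freely diffusing GFP::Dam is the background for local accessibility. The values below are log2 ratios of fusion over GFP::Dam, centred on the median of the tested genes or bins of that column, so a positive value means a higher ratio than at the median gene. Genes without reads in either library share a single ratio, set by the pseudocount and the library sizes, which can lie away from 0 and therefore need not mean more or less contact. A gene or bin is said to be called higher or lower where limma gave a Benjamini-Hochberg adjusted p under 0.05 over all tested genes or bins, two-sided.

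BAF-1 is a small protein that dimerises and bridges DNA, and it ties chromatin to the lamina through lamin and through inner nuclear membrane proteins with a LEM domain. The LINC complex joins the nuclear interior to the cytoskeleton, with a SUN protein in the inner membrane and a KASH protein in the outer membrane. In C. elegans, lmn-1 encodes the lamin, emr-1 and lem-2 encode the LEM proteins emerin and LEM-2, unc-84 encodes a SUN protein, and unc-83 encodes a KASH protein that recruits motor proteins to the nucleus. Chromatin in contact with the envelope is in general poor in active genes, and DamID with envelope proteins is used to map it.

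The ratio tables hold no read counts, so the depth behind each value is not known. The study lists reads per library, which were not used here, and these are uneven, with far fewer for Dam::BAF-1 than for GFP::Dam in intestine replicate 2. Between 11.5% and 33.8% of genes in a column sat at that column's most frequent value, where genes without reads in either library fall, and the highest share was in intestine BAF-1 replicate 1. After centring this value lay between -2.0 and 0.00 in 11 columns, and at 2.85 in intestine BAF-1 replicate 2, so there a gene without reads has a strongly positive ratio. Of the 1407 bins without a GATC site, 99.15% sat at that value in all 12 columns. Across genes, which do not count as replicates, the samples of a group correlated at 0.55 to 0.86. The ratios show neither the allele nor gene expression, so the genotype and tissue labels could not be checked from them.

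Of the 6 genes, unc-83 was the only one whose ratio was called in every group, and it was lower in all 4. In the intestine with BAF-1, baf-1 was called higher, and lmn-1 and unc-84 were called lower together with unc-83. The called shares of all genes were 20.8% higher and 24% lower for hypodermis BAF-1(G12T), 15.9% and 19% for hypodermis BAF-1, 18.2% and 18.7% for intestine BAF-1(G12T), and 24% and 22.8% for intestine BAF-1. Against these shares, the 6 genes gave 1 call lower in each of the first 3 groups, and 1 higher and 3 lower in the last. The shares are over all tested genes, coding or not, and were not counted for protein-coding genes alone. The emr-1 and lem-2 genes were called in no group, and their limma p without adjustment was under 0.05 only for emr-1 in intestine BAF-1(G12T).

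**Figure D1:**
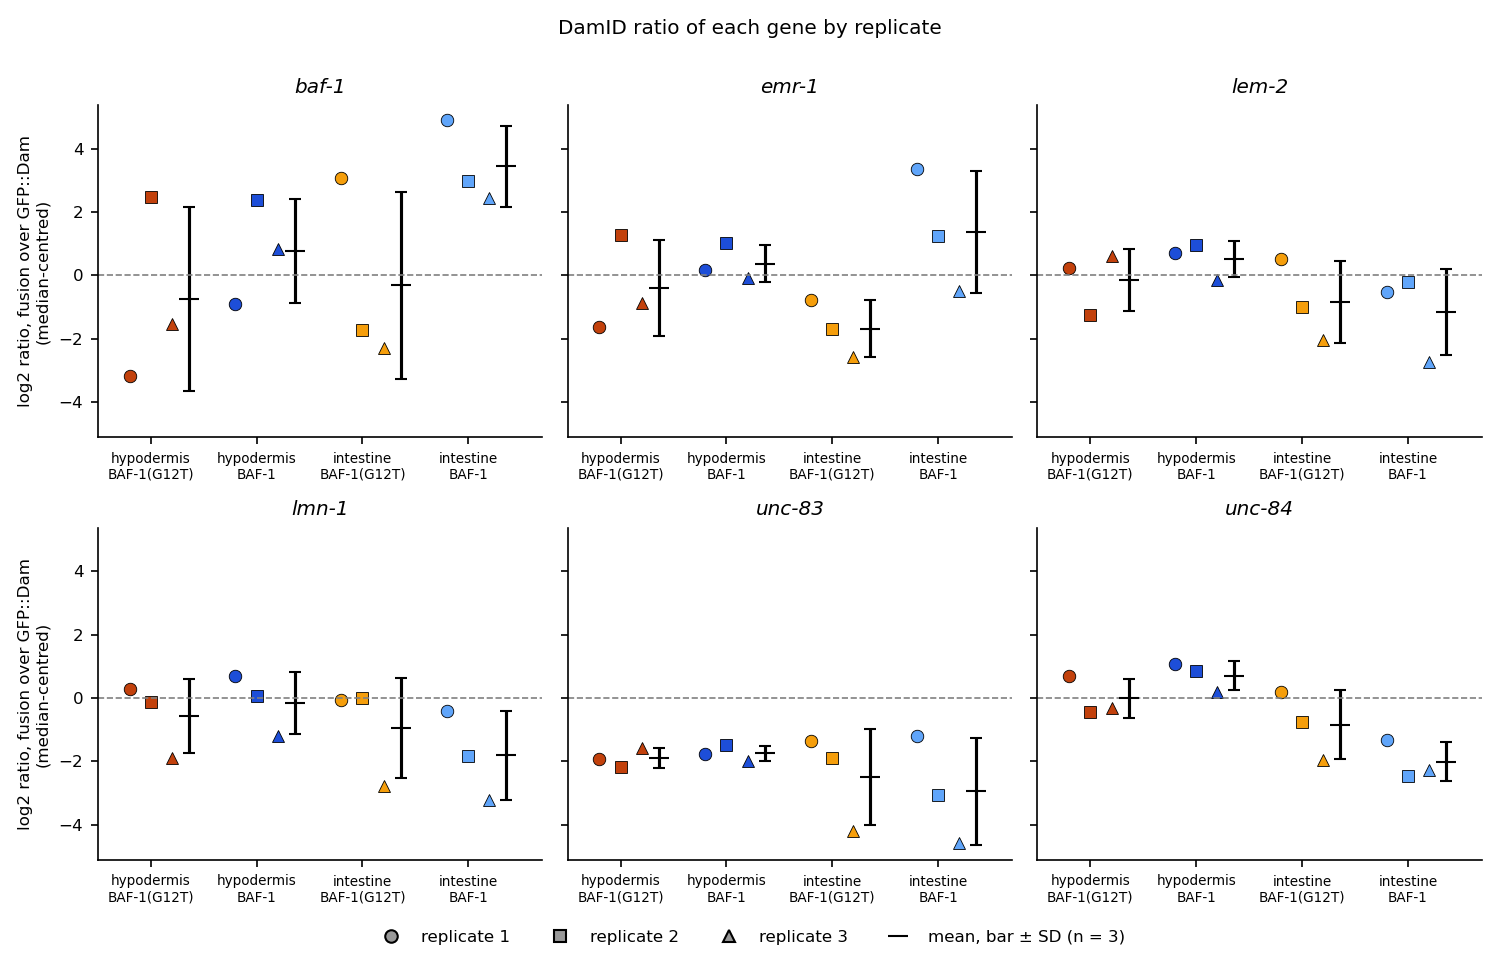
Median-centred log2 ratio of fusion over GFP::Dam (y axis) for each of the 6 genes, in hypodermis BAF-1(G12T), hypodermis BAF-1, intestine BAF-1(G12T) and intestine BAF-1 (x axis). Symbols are the 3 replicates and bars are the mean ± SD, with baf-1 between -3.19 and 2.47 in hypodermis BAF-1(G12T) and between 2.45 and 4.89 in intestine BAF-1.

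The baf-1 gene (WBGene00000235) lies on the plus strand of chromosome III, at 9467464 to 9468058 in the ce11 build. It is 595 bp long, and its window of the gene with 500 bp on each side holds 6 GATC sites, where methylated fragments begin and end. The stretch around codon 12 is shown because the mutant differs there, with the reference glycine codon in capitals, and the 6 sites are shown with GATC in capitals because they are the places that Dam can mark in this window.
baf-1 codon 12: cgtgagttcgtcGGAgagccaatgggc
baf-1 GATC 1: atcaccaccaGATCcagcgattct
baf-1 GATC 2: gcatcgccggGATCgggccaacat
baf-1 GATC 3: tcaaattttcGATCaatgttaaaa
baf-1 GATC 4: cgagtgggcaGATCagttcatgta
baf-1 GATC 5: tattttctacGATCctgaagagtg
baf-1 GATC 6: cccaacattgGATCaggagataaa
The codon stretch is at III:9467490-9467516. Sites 2 and 4 lie in coding exons, site 3 lies in the intron, and site 5 begins at the last base of the gene, outside the coding part. Sites 1 and 6 lie outside the gene, at -443 and 756 bp relative to its start. The fusion construct holds baf-1 between its start and stop codons, so reads at sites 2, 3 and 4 can come from the chromosomal gene or from this copy, and the ratio cannot tell these apart.

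The baf-1 ratio was -3.19, 2.47 and -1.53 in the replicates of hypodermis BAF-1(G12T), and -0.91, 2.38 and 0.84 in those of hypodermis BAF-1. It was 3.08, -1.72 and -2.29 in intestine BAF-1(G12T), and 4.89, 2.97 and 2.45 in intestine BAF-1. Only the last group had all its replicates above 0, and the replicates of the other 3 groups lay on both sides of it. In that group the 2.97 of replicate 2 lay next to the 2.85 of genes without reads in its column, whereas the other replicates lay far above theirs, at 0.00 and -0.59. The SD between replicates was 2.91 in hypodermis BAF-1(G12T), larger than in 99.95% of tested genes, and 2.95 in intestine BAF-1(G12T), larger than in 99.1%. In hypodermis BAF-1 it was 1.64, larger than in 87.0% of genes, and in intestine BAF-1 1.28, larger than in 67.8%.

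In intestine BAF-1, baf-1 averaged 3.44 ± 0.69 (SE, n = 3 replicates; limma adjusted p = 0.00179) and stood at percentile 98.6 of all genes. Without replicate 2 of that group its value was 3.67 and was not called (limma adjusted p = 0.165), in a fit that called 0 genes of the whole table. The mean was -0.31 ± 0.90 in intestine BAF-1(G12T) (SE; adjusted p = 0.808). In the hypodermis it was -0.75 ± 0.79 with BAF-1(G12T) (SE; adjusted p = 0.459) and 0.77 ± 0.67 with BAF-1 (SE; adjusted p = 0.395). Without replicate 2 of hypodermis BAF-1(G12T), baf-1 was called lower there at -2.36 (limma adjusted p = 0.00507).

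The bins showed where in the reference this signal mapped, although reads over baf-1 can come from the chromosomal gene or the construct copy. The bin that holds 537 of the 595 bp of baf-1 had values of 4.02, 3.45 and 3.71 in intestine BAF-1, and was called higher at 3.73 ± 0.29 (SD, n = 3; limma adjusted p = 1.14e-06). The same bin had 2.61, -0.92 and -1.47 in intestine BAF-1(G12T), -3.96, 2.89 and -1.23 in hypodermis BAF-1(G12T), and -1.03, 2.86 and 0.09 in hypodermis BAF-1. It was not called in these 3 groups, and its replicates did not overlap between the proteins in the intestine. The share of all bins or genes that separate in this way was not counted, here or for the separations described below. In intestine BAF-1 the 3.45 of replicate 2 was again near the value of bins without reads in its column, 3.21, and without that replicate the bin was still called, at 3.87 (limma adjusted p = 0.00341). The next bin holds the last 58 bp of the gene and was called lower in all 4 groups. That call was lost without replicate 2 or 3 in hypodermis BAF-1(G12T) and in intestine BAF-1, where replicate 1 sat at the value of bins without reads, and without replicate 2 in hypodermis BAF-1.

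Around baf-1, low bins were the rule. Over the whole window of bins, 15 of 20 tested bins were called lower in hypodermis BAF-1(G12T), 16 of 21 in hypodermis BAF-1, 9 of 21 in intestine BAF-1(G12T) and 16 of 21 in intestine BAF-1. These counts depended on single replicates, with 2 in hypodermis BAF-1 without replicate 2, 3 in intestine BAF-1(G12T) without replicate 3, and 6 and 7 in intestine BAF-1 without replicate 2 and without replicate 3. Of all bins, 23.3%, 19.3%, 16% and 22% were called lower in these groups, and 21%, 16.4%, 18.1% and 24.1% were called higher. The bin over baf-1 in intestine BAF-1 was the only bin of the window called higher in any group. The nearest gene, B0464.9, ends 0.32 kb before baf-1 and shares reads with its window, and it averaged 0.19 in intestine BAF-1(G12T) and 3.40 in intestine BAF-1.

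**Figure D2:**
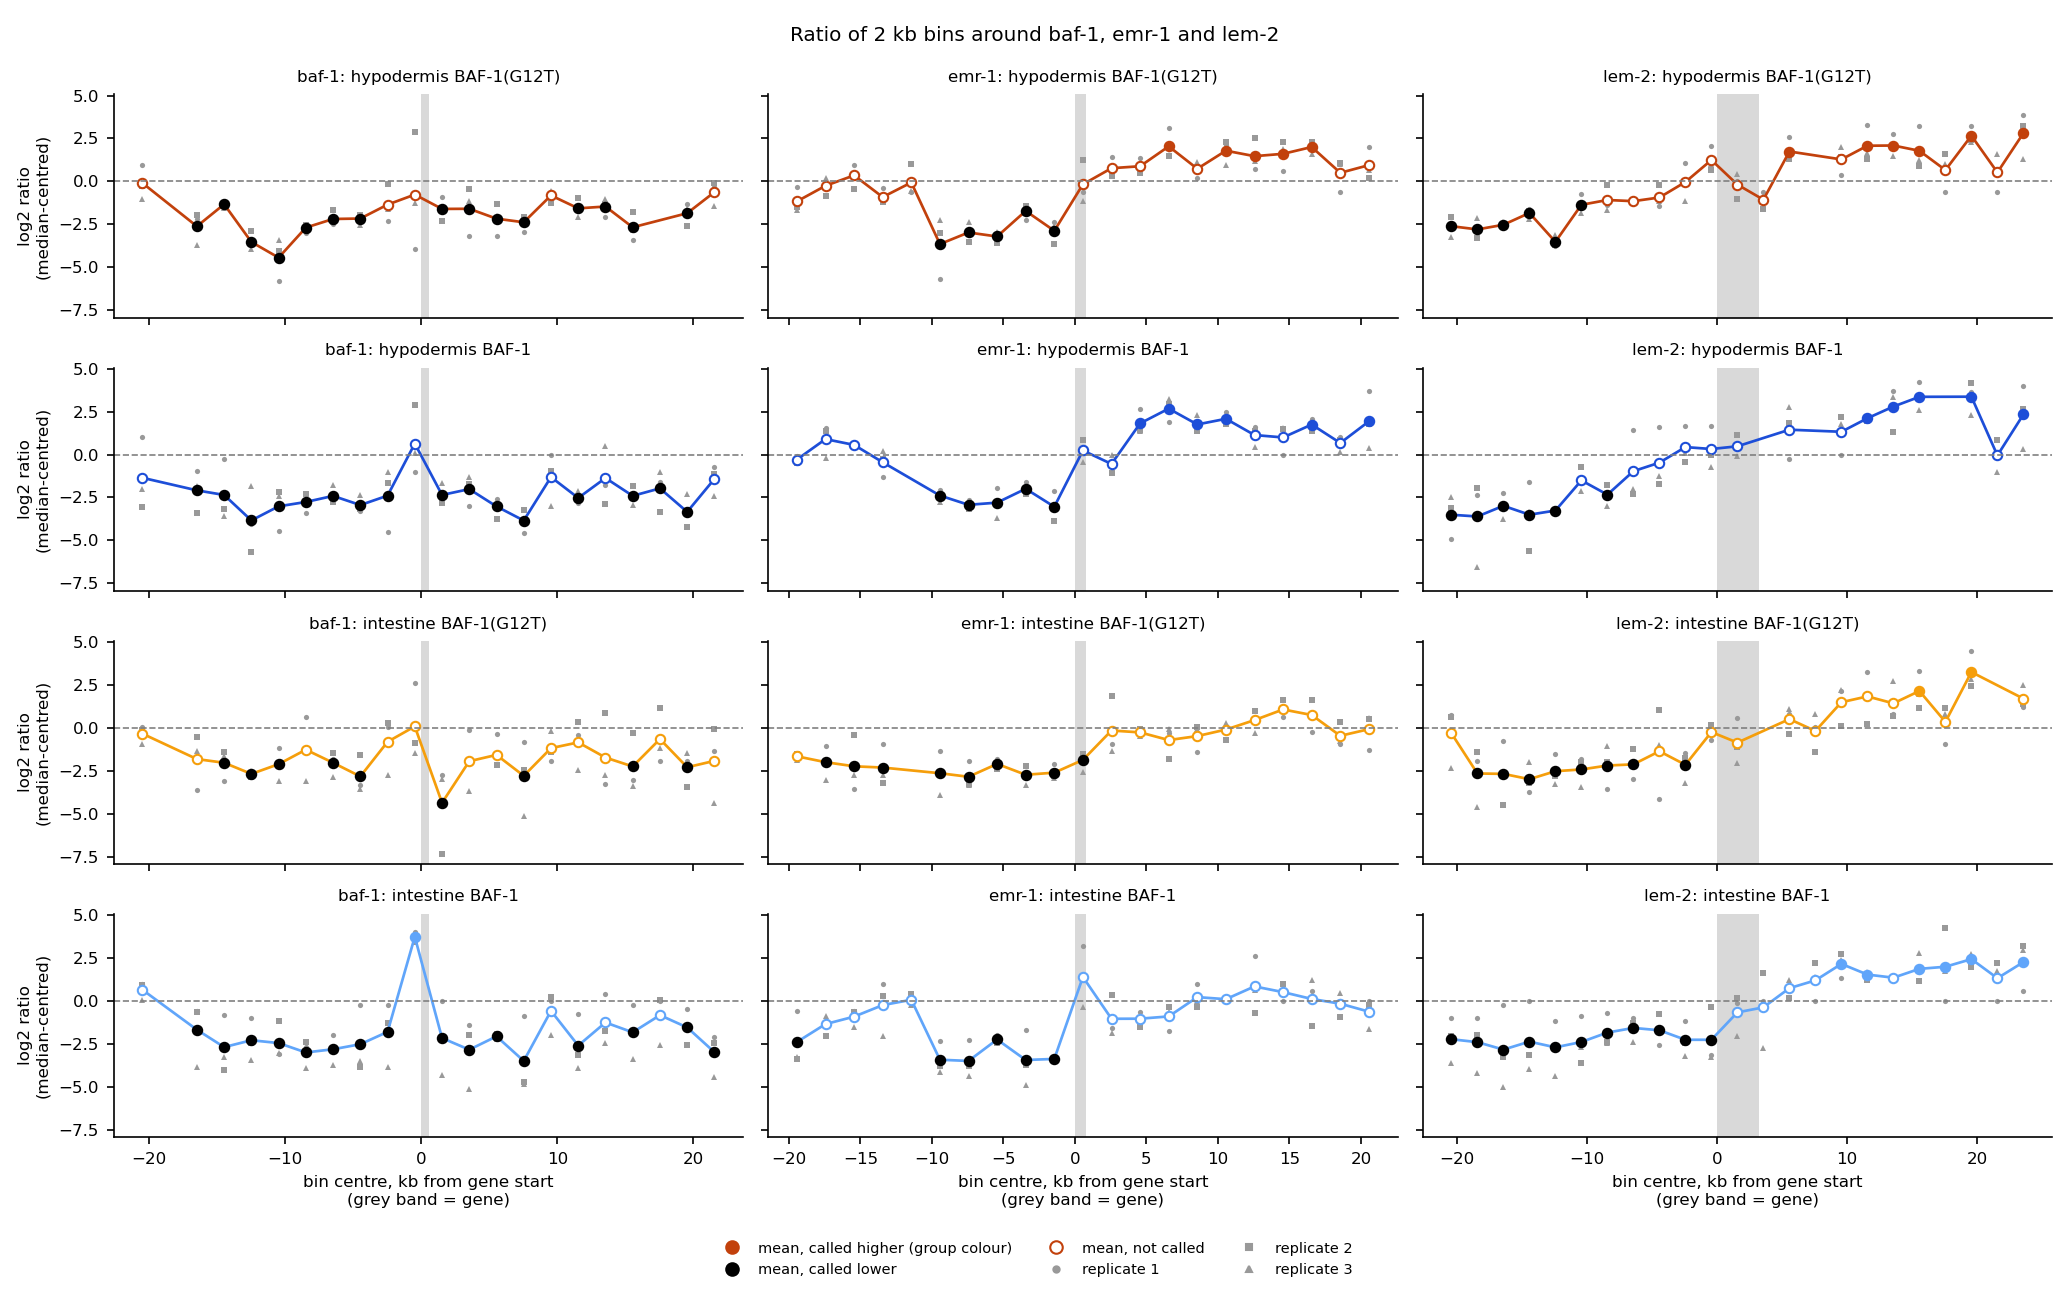
Median-centred log2 ratio of 2 kb bins (y axis) against the distance of the bin centre from the gene start in kb (x axis) around baf-1, emr-1 and lem-2, one row for each group. Lines join the means of 3 replicates, filled coloured points were called higher, black points lower and open points neither, with 1 bin of intestine BAF-1 at 3.73 over baf-1 and a step across emr-1 and lem-2.

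Each gene was then set against its neighbourhood, as the mean of the bins that overlap it minus the mean of the other tested bins within 20 kb. Of the 6 genes, 2 stood above their neighbourhood and 1 below it in intestine BAF-1, where 6.86% of protein-coding genes were called above and 12.5% below. In the other groups limma called 0 of the 6, where 11.2% of genes were called above and 12% below in hypodermis BAF-1(G12T), 5.78% and 6.44% in hypodermis BAF-1, and 3.14% and 5.83% in intestine BAF-1(G12T). The p without adjustment was under 0.05 for 1 of the 6 in hypodermis BAF-1, which was baf-1, and for 0 in the other 2.

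For baf-1 the difference in intestine BAF-1 was 2.92, 2.63 and 2.90 in the replicates, with bins over the gene at 0.78 on average and its neighbourhood at -2.04. This was 2.82 ± 0.16 (SD, n = 3; limma adjusted p = 0.00193), an SD below the 1.28 of the gene ratio itself, and it was called in each of the alternatives tried. Reads from the construct copy of baf-1 can enter the bins over the gene, and whether they raised this difference was not tested. In hypodermis BAF-1 the difference was 0.60, 2.80 and 1.35, all above 0, and averaged 1.58 ± 0.51 (SE; limma adjusted p = 0.0639). That value lay close to the threshold and was called at 1.77 with a neighbourhood of 10 kb (adjusted p = 0.0485), at 1.77 with medians over bins (adjusted p = 0.0428) and at 2.08 without replicate 1 (adjusted p = 0.0406). With bins weighted by overlap it was called at 2.79 (adjusted p = 0.0366). Leaving out a replicate also lowered it to as little as 0.97, and raised the limma adjusted p to as much as 0.369. With BAF-1(G12T) the differences spread more widely, at -0.19, 1.89 and 0.67 in hypodermal replicates and 1.52, -3.04 and 0.33 in intestinal replicates. The bins over the gene counted equally. In the intestinal replicate at -3.04 the bin with 58 bp of baf-1 had -7.35, and that with 537 bp had -0.92. With bins weighted by overlap the intestinal mean was 1.39 instead of -0.40, and neither was called. In the hypodermis it was called at 1.28 without replicate 1 (limma adjusted p = 0.0192).

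**Figure D3:**
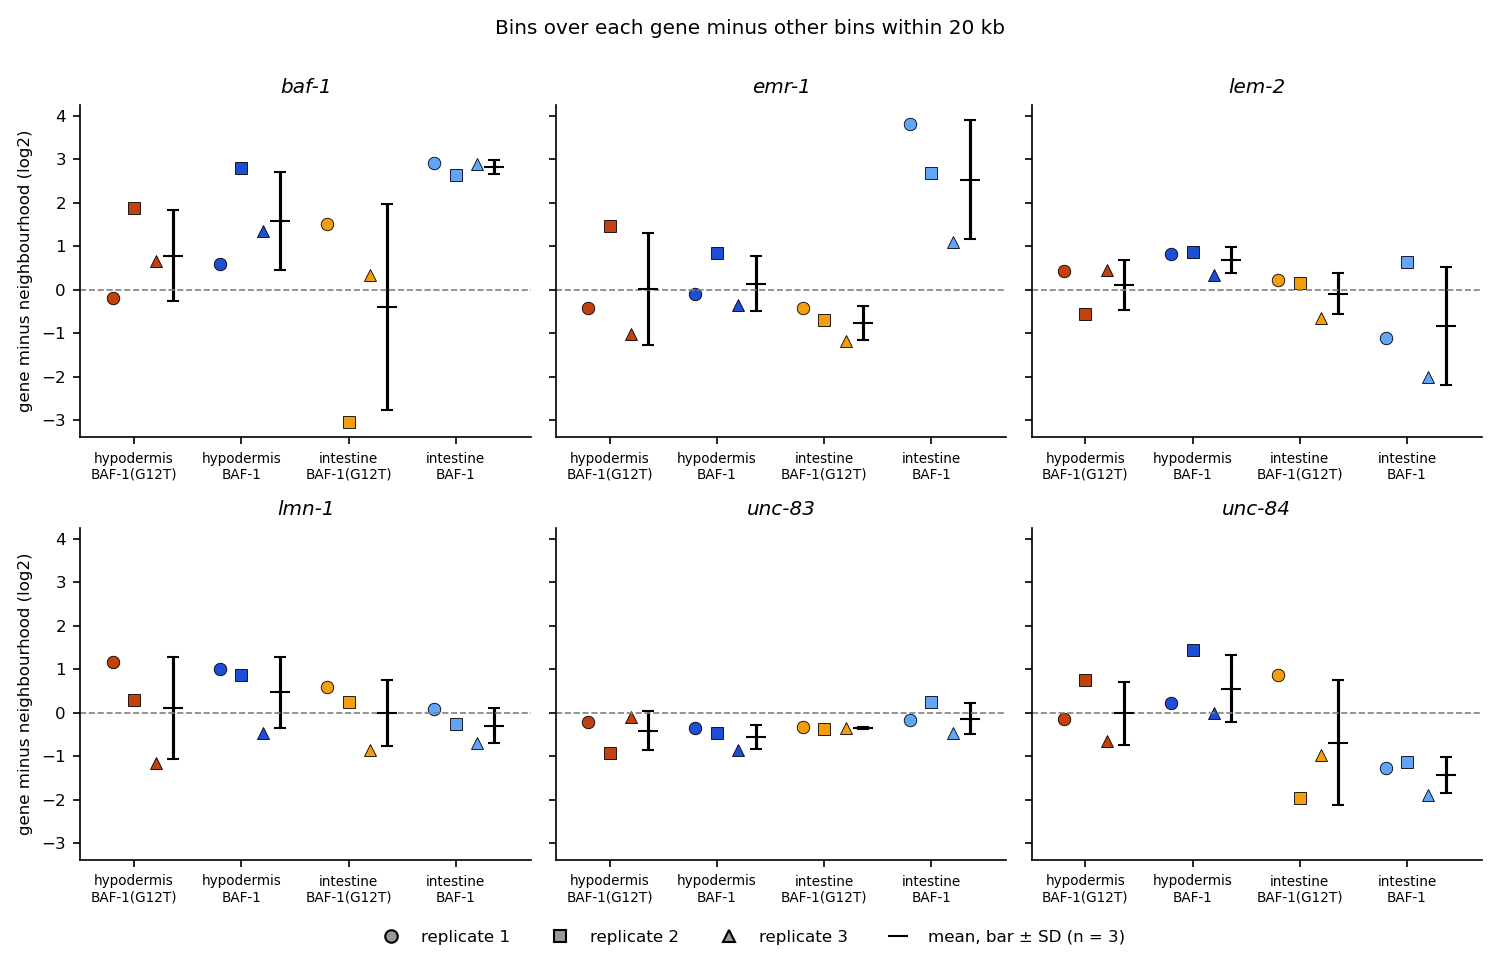
Mean of the bins over each gene minus the mean of the other tested bins within 20 kb, in log2 units (y axis), for the 6 genes in the 4 groups (x axis). Symbols are the 3 replicates and bars are the mean ± SD, with baf-1 and emr-1 at 2.82 and 2.53 and unc-84 at -1.44 in intestine BAF-1.

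The lamin gene lmn-1 (WBGene00003052) lies on the plus strand of chromosome I, at 8763041 to 8765631, and holds 16 GATC sites. Its ratio was 0.30, -0.13 and -1.90 in hypodermis BAF-1(G12T), and 0.70, 0.07 and -1.21 in hypodermis BAF-1. It was -0.07, -0.00 and -2.78 in intestine BAF-1(G12T), and -0.40, -1.82 and -3.20 in intestine BAF-1. Replicate 3 was the lowest in each group, and no intestinal replicate was above 0. In intestine BAF-1 lmn-1 was called lower at -1.81 ± 0.70 (SE, n = 3; limma adjusted p = 0.0382). That call was lost without replicate 2 (-1.80, adjusted p = 0.281), without replicate 3 (-1.11, adjusted p = 0.409), without a filter on low values (-1.86, adjusted p = 0.0847) and in the genes with an adjusted p in the deposited table (-1.75, adjusted p = 0.0508).

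Within lmn-1 the bins differed. The bin with the first 960 bp was called lower in all 4 groups, at -2.30 in hypodermis BAF-1(G12T), -1.83 in hypodermis BAF-1, -2.16 in intestine BAF-1(G12T) and -2.17 in intestine BAF-1. In intestine BAF-1 its replicate 1 sat at the value of bins without reads. The call held without each replicate in turn only in hypodermis BAF-1(G12T). It was lost without any 1 replicate in hypodermis BAF-1 (adjusted p = 0.0701 to 0.215), without replicate 3 in intestine BAF-1(G12T) (-1.30, adjusted p = 0.39), and without replicate 2 (-2.03, adjusted p = 0.118) or replicate 3 (-1.22, adjusted p = 0.271) in intestine BAF-1. The bin with the other 1631 bp was called in none, with 0.08, 0.42, -0.37 and -1.31 in the same groups. As a whole, lmn-1 lay near its neighbourhood, with differences of 0.10, 0.46, -0.00 and -0.30 that limma did not call.

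The emerin gene emr-1 (WBGene00001309) is also on chromosome I, at 1842445 to 1843227 on the plus strand, 12.2% of the way along the chromosome. It is 783 bp long and lies in a single bin. Its ratio was -1.61, 1.29 and -0.87 in hypodermis BAF-1(G12T), and 0.16, 1.02 and -0.07 in hypodermis BAF-1. It was -0.79, -1.69 and -2.59 in intestine BAF-1(G12T), and 3.36, 1.24 and -0.49 in intestine BAF-1. In the intestine the groups did not overlap, since the lowest BAF-1 replicate was above the highest BAF-1(G12T) replicate, whereas in the hypodermis they did. The share of all genes that separate likewise was not counted. In intestine BAF-1 the 1.24 of replicate 2 lay below the 2.85 of genes without reads in its column. The -0.49 of replicate 3 lay next to the -0.585 of its own. The mean of emr-1 was -1.69 ± 0.67 in intestine BAF-1(G12T) (SE; limma adjusted p = 0.0602) and 1.37 ± 0.74 in intestine BAF-1 (SE; adjusted p = 0.127), so neither was called. In the hypodermis it was -0.40 ± 0.58 with BAF-1(G12T) and 0.37 ± 0.57 with BAF-1 (SE).

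Against its neighbourhood emr-1 stood out in intestine BAF-1, by 3.82, 2.69 and 1.09 in the replicates. The mean of 2.53 ± 0.50 (SE, n = 3) was called by limma (adjusted p = 0.00784), and without replicate 2 it was 2.45 (adjusted p = 0.0576). The emr-1 bin itself had 1.34 in replicate 2 and -0.36 in replicate 3 of this group. Both lay below the value of bins without reads in their columns, 3.21 and 0.04. Only in replicate 1, at 3.18, did the bin lie above that value. In intestine BAF-1(G12T) the differences were -0.41, -0.69 and -1.17, all below 0, with a mean of -0.76 that was not called (adjusted p = 0.301). The emr-1 bin itself was called lower there, at -1.88. That call was lost without replicate 2 (-2.04, limma adjusted p = 0.0505), without replicate 3 (-1.53, adjusted p = 0.299) and without the filter on low values (-1.63, adjusted p = 0.0662). In the hypodermis they were -0.41, 1.46 and -1.01 with BAF-1(G12T), and -0.09, 0.86 and -0.35 with BAF-1, on both sides of 0. The windows of egl-30, a G protein alpha subunit gene, and of nlp-12, a neuropeptide gene, overlap that of emr-1 and share reads with it.

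The flanks of emr-1 formed a step. Downstream of the gene, to the right, the bins averaged 1.27 in hypodermis BAF-1(G12T), 1.43 in hypodermis BAF-1, -0.01 in intestine BAF-1(G12T) and -0.20 in intestine BAF-1. Upstream, to the left, they averaged -1.65, -1.38, -2.36 and -2.09 in these groups. Of the 10 bins to the right, 5 were called higher in hypodermis BAF-1(G12T) and 6 in hypodermis BAF-1, and limma called 0 in either intestinal group. Of the tested bins to the left, 5 of 10, 5 of 9, 8 of 9 and 6 of 10 were called lower. Of all bins, 21%, 16.4%, 18.1% and 24.1% were called higher in these groups, and 23.3%, 19.3%, 16% and 22% lower. Over the whole window, leaving out a replicate gave 2 to 5 bins called higher in hypodermis BAF-1(G12T), and 0 without replicate 2 and 3 without either other replicate in hypodermis BAF-1. Bins called lower fell to 0 without replicate 2 in hypodermis BAF-1 and without replicate 3 in intestine BAF-1(G12T), and ranged between 5 and 6 in hypodermis BAF-1(G12T) and between 4 and 6 in intestine BAF-1.

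The difference of the right flank minus the left was compared in the same way for all protein-coding genes, a comparison added after the profiles had been seen. For emr-1 it was 2.99, 3.21 and 2.56 in hypodermis BAF-1(G12T), and 2.70, 2.80 and 2.92 in hypodermis BAF-1. It was 1.49, 2.71 and 2.85 in intestine BAF-1(G12T), and 1.34, 1.83 and 2.48 in intestine BAF-1. The means of 2.92 (limma adjusted p = 1.71e-09), 2.81 (adjusted p = 1.91e-09), 2.35 (adjusted p = 4.87e-05) and 1.88 (adjusted p = 0.00284) were all called. Of the 6 genes, lmn-1, emr-1 and lem-2 were called with a higher right flank in all 4 groups. A right flank called higher was common, at 25.5% of protein-coding genes in hypodermis BAF-1(G12T), 20.8% in hypodermis BAF-1, 19.7% in intestine BAF-1(G12T) and 20.8% in intestine BAF-1.

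The other LEM-domain gene, lem-2 (WBGene00002275), lies on the plus strand of chromosome II at 14063450 to 14066646, 92.0% of the way along the chromosome. It had few GATC sites, with 1.91 per kb in its window against 2.68 per kb over the 6 chromosomes. Its ratio was 0.23, -1.24 and 0.60 in hypodermis BAF-1(G12T), and 0.69, 0.97 and -0.13 in hypodermis BAF-1. It was 0.52, -1.01 and -2.04 in intestine BAF-1(G12T), and -0.54, -0.21 and -2.73 in intestine BAF-1. The groups overlapped and lem-2 was called in none of them. The means were -0.14 ± 0.52, 0.51 ± 0.57, -0.84 ± 0.70 and -1.16 ± 0.69 (SE), and the last was called lower at -1.47 without replicate 1 (limma adjusted p = 0.0434). Of the bins over lem-2, only the bin with its first 551 bp was called, lower in intestine BAF-1 at -2.27. That call was lost without replicate 3 (-1.76, limma adjusted p = 0.0945).

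Around lem-2 the mean step was larger than around emr-1 in every group, a difference that was not tested. The right flank averaged 1.74 in hypodermis BAF-1(G12T), 2.09 in hypodermis BAF-1, 1.38 in intestine BAF-1(G12T) and 1.68 in intestine BAF-1, and the left flank averaged -1.78, -2.17, -2.15 and -2.24. The right minus left difference was 3.73, 3.31 and 3.52 in hypodermis BAF-1(G12T), and 3.54, 4.67 and 4.55 in hypodermis BAF-1. It was 3.79, 2.32 and 4.48 in intestine BAF-1(G12T), and 1.97, 4.42 and 5.36 in intestine BAF-1. The means of 3.52 (limma adjusted p = 5.98e-11), 4.26 (adjusted p = 1.75e-15), 3.53 (adjusted p = 4.07e-07) and 3.92 (adjusted p = 0.0011) were all called, and for lem-2 and emr-1 they were called in each of the alternatives tried. Of the right bins, 6 of 9, 5 of 8, 2 of 9 and 6 of 10 were called higher, and of the 10 left bins 6, 6, 8 and 10 were called lower. The shares of all bins called in each direction are those given for emr-1. Over the whole window, leaving out replicate 2 gave 2 bins higher and 3 lower in hypodermis BAF-1 and 1 higher and 4 lower in intestine BAF-1. Without replicate 3 there were 2 higher and 1 lower in intestine BAF-1 and 1 higher and 2 lower in intestine BAF-1(G12T). The flank means kept their call where these single bins lost theirs. The gene lies between these flanks and was called neither above nor below their mean, with differences of 0.12, 0.68, -0.08 and -0.83. The gene xrn-1, which encodes an exoribonuclease, starts 2.26 kb to the right and was the neighbour with the highest ratio, at 2.23, 2.99, 2.44 and 1.84.

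For lmn-1 the flank step was smaller and less stable, with means of 0.83, 0.89, 1.20 and 1.47 in the order of hypodermis BAF-1(G12T), hypodermis BAF-1, intestine BAF-1(G12T) and intestine BAF-1 (limma adjusted p = 0.0154, 0.0454, 0.0165 and 0.0109). In each group at least 1 alternative ended the call, such as leaving out replicate 1 in hypodermis BAF-1 (0.33, adjusted p = 0.554). Leaving out replicate 2 ended it in intestine BAF-1 (1.13, adjusted p = 0.173), leaving out replicate 3 ended it in hypodermis BAF-1(G12T) (0.83, adjusted p = 0.0907) and in intestine BAF-1(G12T) (1.18, adjusted p = 0.112).

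The SUN gene unc-84 (WBGene00006816) lies on the plus strand of the X chromosome, at 13584775 to 13589821. Its ratio was 0.71, -0.44 and -0.30 in hypodermis BAF-1(G12T), and 1.09, 0.85 and 0.19 in hypodermis BAF-1. It was 0.20, -0.77 and -1.94 in intestine BAF-1(G12T), and -1.31, -2.46 and -2.26 in intestine BAF-1. With BAF-1 all replicates lay above 0 in the hypodermis and all below it in the intestine, and with BAF-1(G12T) they lay on both sides in each tissue. In intestine BAF-1, unc-84 was called lower at -2.01 ± 0.66 (SE, n = 3; limma adjusted p = 0.0178). That call was lost without replicate 2 (-1.79, adjusted p = 0.233), without replicate 3 (-1.89, adjusted p = 0.134) and without the filter on low values (-2.07, adjusted p = 0.0541). The other means were -0.01 ± 0.49 in hypodermis BAF-1(G12T), 0.71 ± 0.57 in hypodermis BAF-1 and -0.83 ± 0.68 in intestine BAF-1(G12T) (SE).

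Against its neighbourhood unc-84 was lower in intestine BAF-1, by -1.28, -1.13 and -1.90 in the replicates, a mean of -1.44 ± 0.38 (SE; limma adjusted p = 0.025). The neighbourhood itself averaged -0.34 and the bins over the gene -1.78. The call was lost without replicate 2 (-1.59, adjusted p = 0.108), without replicate 3 (-1.21, adjusted p = 0.186), with a neighbourhood of 10 kb (-0.94, adjusted p = 0.128) and with bins weighted by their overlap (-1.25, adjusted p = 0.0516). The lowest of its 3 bins held the first 1226 bp of the gene, at -3.04 in intestine BAF-1, and the middle bin was the highest in hypodermis BAF-1(G12T) at 1.40 and in hypodermis BAF-1 at 1.69, where it was called higher. That call was lost without replicate 1 (1.24, adjusted p = 0.165) and without replicate 2 (1.71, adjusted p = 0.193). In the other 3 groups the difference from the neighbourhood was -0.02, 0.55 and -0.69, with replicates on both sides of 0.

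The KASH gene unc-83 (WBGene00006815) is the longest of the 6, with 22819 bp on the plus strand of chromosome V at 6465065 to 6487883 and 65 GATC sites. Its ratio was -1.91, -2.18 and -1.57 in hypodermis BAF-1(G12T), and -1.76, -1.49 and -1.99 in hypodermis BAF-1. It was -1.34, -1.89 and -4.20 in intestine BAF-1(G12T), and -1.19, -3.07 and -4.56 in intestine BAF-1. All 12 values lay below 0, and the spread was small in the hypodermis, where the SD of 0.31 with BAF-1(G12T) and 0.25 with BAF-1 exceeded that of only 11.2% and 5.75% of genes.

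The mean of unc-83 was -1.89 ± 0.48 in hypodermis BAF-1(G12T) (SE; limma adjusted p = 0.00607) and -1.75 ± 0.56 in hypodermis BAF-1 (SE; adjusted p = 0.0271). It was -2.48 ± 0.72 in intestine BAF-1(G12T) (SE; adjusted p = 0.0168) and -2.94 ± 0.72 in intestine BAF-1 (SE; adjusted p = 0.00398), which is percentile 5.59 of all genes. These calls also depended on single replicates. In hypodermis BAF-1 the call was lost without replicate 2 (-1.88, adjusted p = 0.12) and without replicate 3 (-1.62, adjusted p = 0.122), in intestine BAF-1(G12T) without replicate 3 (-1.62, adjusted p = 0.245), and in intestine BAF-1 without replicate 2 (-2.87, adjusted p = 0.176) and without replicate 3 (-2.13, adjusted p = 0.0987). Without the filter on low values it was lost in 3 groups, at -1.59 in hypodermis BAF-1(G12T) (adjusted p = 0.0922), -1.43 in hypodermis BAF-1 (adjusted p = 0.0671) and -1.85 in intestine BAF-1(G12T) (adjusted p = 0.175). With the deposited centring hypodermis BAF-1 gave -1.52 (adjusted p = 0.0516).

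The low ratio of unc-83 ran through the gene and beyond it. Of the 12 bins over the gene, 11 were called lower in hypodermis BAF-1(G12T), 8 in hypodermis BAF-1, 8 in intestine BAF-1(G12T) and 11 in intestine BAF-1, and limma called 0 of them higher. In hypodermis BAF-1 replicate 3 the first and last of these bins sat at the value of bins without reads, and others lay above it. Of all 32 bins of the window, 24, 14, 16 and 26 were called lower, where 23.3%, 19.3%, 16% and 22% of all bins were. Without 1 replicate the counts ranged between 16 and 21 in hypodermis BAF-1(G12T), 2 and 10 in hypodermis BAF-1, 4 and 21 in intestine BAF-1(G12T), and 15 and 29 in intestine BAF-1. The lowest of these came without replicate 2 in hypodermis BAF-1, without replicate 3 in intestine BAF-1(G12T) and without replicate 2 in intestine BAF-1. The bins over the gene averaged -1.81, -1.93, -2.30 and -2.53, and its neighbourhood averaged -1.39, -1.37, -1.95 and -2.39. The difference between them was -0.41, -0.56, -0.35 and -0.14, and was called in no group.

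**Figure D4:**
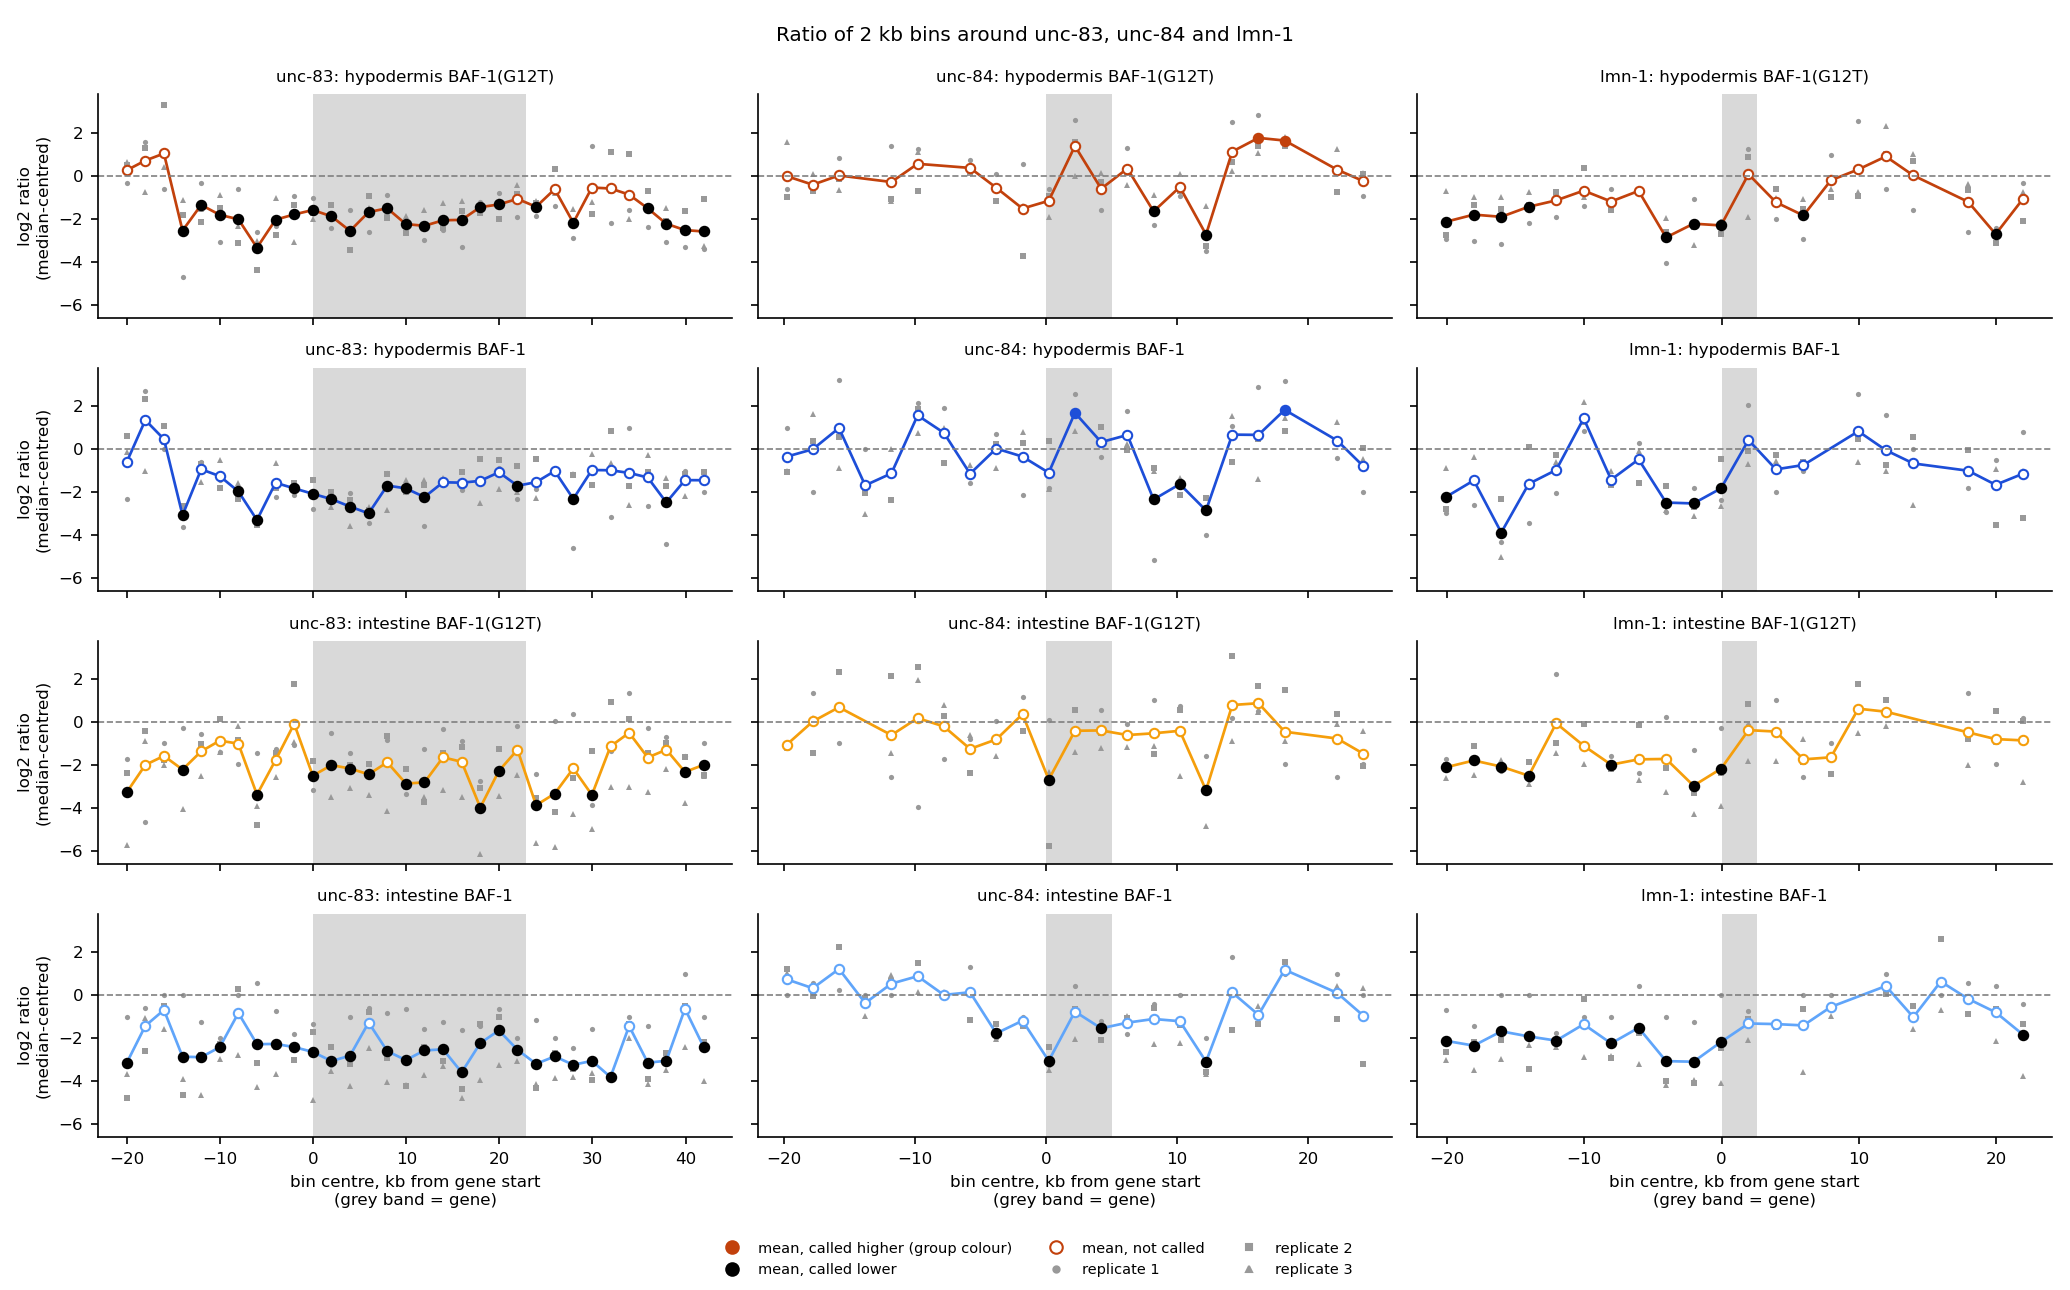
Median-centred log2 ratio of 2 kb bins (y axis) against the distance of the bin centre from the gene start in kb (x axis) around unc-83, unc-84 and lmn-1, one row for each group. Lines join the means of 3 replicates, filled coloured points were called higher, black points lower and open points neither, and 24, 14, 16 and 26 of the 32 bins around unc-83 were called lower in the rows from top to bottom.

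The protein-coding genes within 20 kb were then counted gene by gene, where 24%, 19%, 18.7% and 22.8% of all genes were called lower in hypodermis BAF-1(G12T), hypodermis BAF-1, intestine BAF-1(G12T) and intestine BAF-1. These shares include genes that do not code for protein, so they are not a like set. Of the 8 neighbours of baf-1, 6, 7, 3 and 5 were called lower in these groups. In the same groups 8, 4, 7 and 9 of the 11 neighbours of unc-83 were called lower, 7, 3, 2 and 6 of the 10 neighbours of lmn-1, and 4, 4, 7 and 6 of the 11 neighbours of emr-1. Around lem-2 it was 1, 1, 3 and 3 of 4, and around unc-84 1, 2, 0 and 3 of 12, of which 11 were tested in hypodermis BAF-1(G12T). Calls higher were made for B0464.9 beside baf-1 in intestine BAF-1, for 1 neighbour of lem-2 in each group, for 1 of emr-1 and 2 of unc-84 in hypodermis BAF-1(G12T), and for 3 of emr-1 and 1 of unc-84 in hypodermis BAF-1. Without replicate 2 none of these neighbours was called in hypodermis BAF-1 or in intestine BAF-1, in fits that called 0 genes of the whole table. The neighbours with the highest mean over the 12 columns were pqn-26 at 0.13 beside lmn-1, Y71G12B.30 at 1.23 beside emr-1, fbxa-196 at -0.28 beside unc-83 and F54B11.8 at 0.76 beside unc-84.

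Whether the mutation changed these ratios was asked by setting BAF-1(G12T) against BAF-1 within each tissue. Limma called 0 of 35905 genes in the hypodermis, where 738 had an unadjusted p under 0.05, and 0 of 36219 in the intestine, where 1398 had one, so that 0% was called in each direction. With the replicate number as a block the counts were again 0, with 1653 and 2908 genes below 0.05 before adjustment. In the hypodermis the p of each of the 6 genes was above that level, and in the intestine it was below it for 2 of the 6.

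These 2 genes were baf-1 and emr-1. For baf-1 in the intestine the log2 difference of BAF-1(G12T) minus BAF-1 was -3.85 ± 1.28 (SE; 95% interval -6.62 to -1.07; limma adjusted p = 0.999), and for emr-1 it was -3.16 ± 1.00 (SE; 95% interval -5.34 to -0.97; limma adjusted p = 0.999). In the hypodermis the differences were -1.51 ± 1.29 for baf-1 and -0.76 ± 0.83 for emr-1 (SE). The tissues could not be shown to differ in this, since the interaction of protein and tissue was 2.42 ± 2.0 for baf-1 (SE; limma adjusted p = 0.975) and 2.48 ± 1.34 for emr-1 (SE; limma adjusted p = 0.975), with 0 of 34197 genes called and 1498 at an unadjusted p under 0.05. With a replicate block the 95% intervals of the intestinal differences were -5.64 to -2.05 for baf-1 and -4.70 to -1.61 for emr-1. Neither was called (limma adjusted p = 0.510 for each).

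The contrast of gene and neighbourhood was also set between the proteins, an addition made after these values had been seen. For emr-1 in the intestine it was lower with BAF-1(G12T) in every replicate, and the difference of -3.29 ± 0.70 (SE, n = 3 each; 95% interval -4.82 to -1.75) was not called (limma adjusted p = 0.986). For baf-1 it was -3.22 ± 0.94 (SE; limma adjusted p = 0.986), with the bins over the gene counted equally whatever part of it they hold. Over all protein-coding genes 0 of 19391 were called in the hypodermis and 0 of 19457 in the intestine, with 479 and 868 below 0.05 before adjustment. In the hypodermis the difference was -0.79 ± 0.71 for baf-1 and -0.12 ± 0.69 for emr-1 (SE). The 95% intervals there ran between -2.35 and 0.76 for baf-1 and between -1.63 and 1.38 for emr-1. With a replicate block those in the intestine ran between -4.86 and -1.57 for baf-1 and between -4.52 and -2.06 for emr-1. Neither was called (limma adjusted p = 0.587 for each).

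Tissues were compared next, as hypodermis minus intestine for each protein. Limma called 1.84% of genes higher and 3.71% lower in the hypodermis with BAF-1(G12T), and 2.05% higher and 2.39% lower with BAF-1, and none of the 6 genes was among them. The nearest was unc-84 with BAF-1, at a difference of 2.62 ± 0.82 (SE; 95% interval 0.91 to 4.34; limma adjusted p = 0.0686) and whose replicates did not overlap between tissues. With the deposited centring it was called at 3.12 (adjusted p = 0.0287), and without intestine BAF-1 replicate 1 at 2.92 (adjusted p = 0.0301). With BAF-1(G12T) it was 0.80 ± 0.80 (SE; adjusted p = 0.602).

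For baf-1 with BAF-1 the tissue difference was -2.76 ± 0.96 (SE; 95% interval -4.78 to -0.75; limma adjusted p = 0.0932), and in the hypodermis no replicate reached the lowest of the intestine. It was called at -3.11 (adjusted p = 0.0449) when only genes with an adjusted p in the deposited tables were tested. With BAF-1(G12T) it was -0.46 ± 1.44 (SE). For emr-1 the difference was 1.26 ± 0.89 with BAF-1(G12T) and -1.10 ± 0.95 with BAF-1 (SE), both with 95% intervals across 0. The centring bears on this comparison, since with the deposited centring 78.0% of the calls with BAF-1 were higher in the hypodermis, against 46.2% with the median.

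The 6 genes were placed beside 39 other genes of the nuclear envelope. They comprise LINC complex genes, regulators of BAF-1 and LEM genes, inner membrane genes and nucleoporins, and all 39 were tested in every group. In hypodermis BAF-1(G12T) 2 were called higher and 20 lower, in hypodermis BAF-1 3 and 14, in intestine BAF-1(G12T) 1 and 17, and in intestine BAF-1 1 and 29. These counts stand beside 24%, 19%, 18.7% and 22.8% of all genes called lower. The 39 are protein-coding, whereas of the 37733 genes tested in hypodermis BAF-1(G12T), for example, 19211 were. The share called among protein-coding genes alone was not counted. Without replicate 2 none of the 39 was called in hypodermis BAF-1 or in intestine BAF-1, again with 0 genes called in the whole table, and without replicate 3 it called 2 lower in intestine BAF-1(G12T) and 5 in intestine BAF-1. The median ratio of the 39 was -1.31, -0.86, -1.63 and -2.45 in these groups, against 0.10, 0.05, -0.06 and 0.06 over all tested genes. In hypodermis BAF-1(G12T), hypodermis BAF-1 and intestine BAF-1(G12T) the other 5 of the 6 genes besides unc-83 were not called, and in intestine BAF-1 baf-1 lay above all 39. As described above, reads from the construct copy can enter the baf-1 ratio, and its replicate 2 there lay near the value of genes without reads.

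The KASH gene anc-1, which anchors nuclei to actin, was called lower at -1.96, -1.84, -2.27 and -3.56 in the 4 groups, and zyg-12, a KASH gene that ties centrosomes to the nucleus, at -1.99, -2.36, -2.17 and -2.95. The inner membrane gene samp-1, the chromodomain gene cec-4, which anchors methylated histone H3 at the envelope, and the lipin gene lpin-1 were also called lower in all 4. The kinase gene vrk-1, whose product releases BAF-1 from DNA by phosphorylation, was called lower at -2.19 in hypodermis BAF-1(G12T), -2.36 in hypodermis BAF-1 and -2.38 in intestine BAF-1. The inner membrane gene nemp-1 went the other way and was called higher in all 4 groups, at 2.14, 2.60, 3.37 and 2.20. Of the 27 nucleoporin genes, 13, 7, 11 and 20 were called lower and 1, 2, 0 and 0 higher in the 4 groups. Of those called higher, npp-8 was called higher in the hypodermis, at 2.61 with BAF-1(G12T) and 3.24 with BAF-1, and npp-13 at 1.69 in hypodermis BAF-1. In hypodermis BAF-1 these nucleoporin calls and that of nemp-1 were lost without replicate 2, and in intestine BAF-1 that of nemp-1 was lost without replicate 2 or 3. The lower calls of anc-1, zyg-12, samp-1, cec-4, lpin-1 and vrk-1 were also lost without replicate 2 in hypodermis BAF-1 and intestine BAF-1. In intestine BAF-1(G12T) those of anc-1, zyg-12, samp-1, cec-4 and lpin-1 were lost without replicate 3. That of lpin-1 in hypodermis BAF-1 was lost without any 1 replicate (limma adjusted p = 0.0612 to 0.145).

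Between tissues, npp-4 was higher in the hypodermis with both proteins, by 4.12 with BAF-1(G12T) (limma adjusted p = 0.00973) and 3.77 with BAF-1 (adjusted p = 0.0277). With BAF-1(G12T) another nucleoporin gene was higher by 2.73 (adjusted p = 0.0456), and with BAF-1 npp-11 and npp-13 were higher by 3.37 (adjusted p = 0.0467) and 3.22 (adjusted p = 0.0417). With BAF-1, npp-4, npp-11 and npp-13 all lost their call with a replicate block (adjusted p = 0.0602, 0.0719 and 0.0743), without hypodermis BAF-1 replicate 1 or 2 and without intestine BAF-1 replicate 2 or 3. With BAF-1(G12T), npp-4 lost it without hypodermis BAF-1(G12T) replicate 1 (adjusted p = 0.0668) or replicate 2 (adjusted p = 0.0589). None of the 39 was called between the proteins in either tissue.

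**Figure D5:**
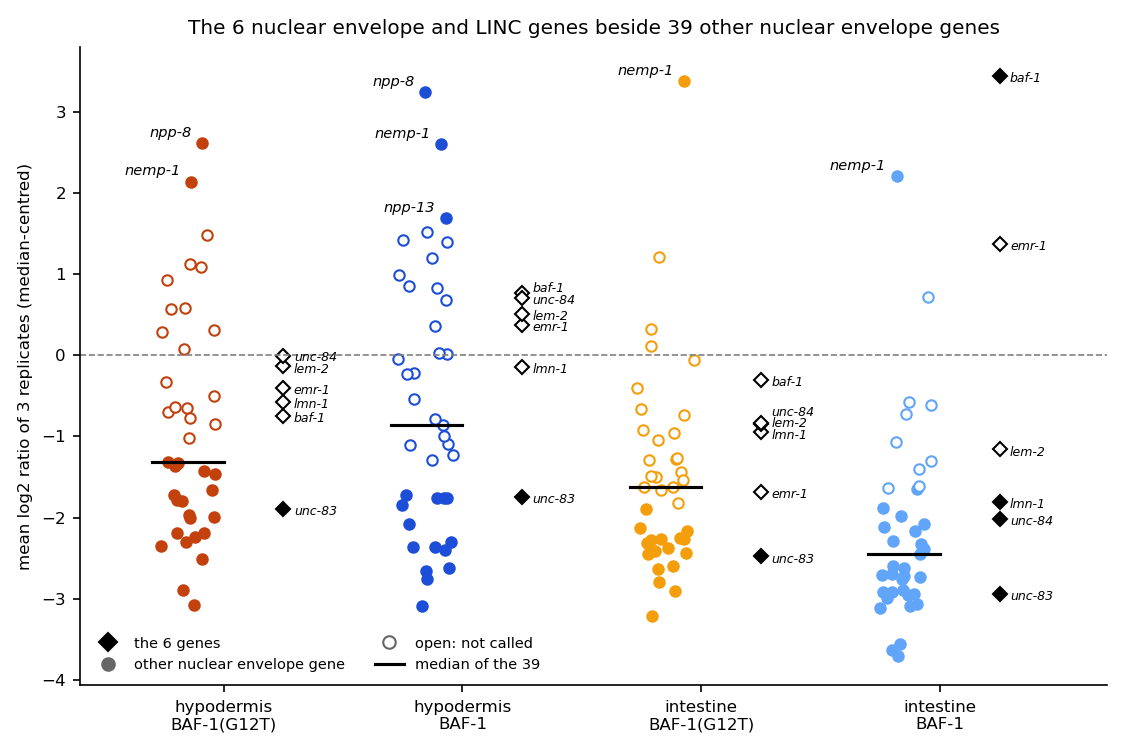
Mean median-centred log2 ratio of 3 replicates (y axis) of the 6 genes (black diamonds) and 39 other nuclear envelope genes (coloured circles) in the 4 groups (x axis). Filled symbols were called and open ones were not, black lines mark the median of the 39 at -1.31, -0.86, -1.63 and -2.45, and nemp-1 lies above the median gene in each group.

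Likeness among genes was measured as the root mean square difference over the 12 columns, and is given as a description. Among the 6, lem-2 and unc-84 were nearest each other at 0.82, lmn-1 and unc-84 followed at 0.87, and baf-1 and unc-83 were farthest apart at 4.01. The gene nearest baf-1 among the 6 was emr-1, at 1.76. Of 8466 named protein-coding genes compared, the nearest to baf-1 were hsp-16.41 at 1.78 and hsp-16.2 at 1.80, where the median was 3.28. These small heat shock genes are neighbours on chromosome V, and hsp-16.41 averaged -1.41 in hypodermis BAF-1(G12T), -1.29 in hypodermis BAF-1, 0.21 in intestine BAF-1(G12T) and 2.80 in intestine BAF-1. A promoter of hsp-16.41 is part of both the fusion and the GFP::Dam constructs, and reads from it and from the chromosomal gene cannot be told apart.

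The other genes had closer counterparts. For lmn-1 they were nhr-80, a nuclear hormone receptor gene, at 0.44 and arl-8 at 0.49, and for lem-2 set-26, a SET domain gene, at 0.57 and alg-2, an Argonaute gene, at 0.64. For unc-83 they were the polarity gene par-3 at 0.27 and the splicing factor gene prp-31 at 0.36, and for unc-84 kel-8 at 0.29 and rnf-113 at 0.35. For emr-1 they were hsb-1, which encodes a binding protein of the heat shock factor, at 1.16 and prcc-1 at 1.20. Of the 6, baf-1 and emr-1 were thus the ones without a gene within 1 log2 unit.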

How the data were processed

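Each group's log2 ratios were deposited by the authors in a table of genes, extended by 500 bp on each side, and in a table of 2 kb bins, in the ce11 build. Per the study's methods, the authors scaled reads to relative reads after adding a pseudocount of 1, took the ratio of fusion to GFP::Dam, and subtracted the mean over features. Those methods describe averaging over replicates before the ratio, whereas the deposited columns hold 1 ratio per replicate, and which GFP::Dam replicate was the divisor is not stated. The deposited columns of averages and of adjusted p-values, which come from the authors' DESeq2 tests, hold their own comparisons and were not used, except that the presence of an adjusted p-value served as a filter in 1 alternative. The name of a table gave its protein and tissue, and a column's number gave its replicate.

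Here each column was centred on the median of its tested features. A feature was tested if at least 2 of the 3 replicates were off the column's most frequent value, and a replicate at that value was kept. Ratios were fitted with limma 3.58.1 in R 4.3.3 (robust empirical Bayes, two-sided, Benjamini-Hochberg over all tested features, FDR 0.05), with the mean tested against 0 or between groups. The contrast of gene and neighbourhood needed at least 3 other bins within 20 kb. Same-numbered replicates of the proteins deviated together (correlations of deviations 0.41, 0.31 and 0.26 in the hypodermis, 0.31, 0.23 and 0.43 in the intestine), so their numbers were taken to pair them in the fits with a replicate block. Values given between the proteins come from fits without that block unless it is named. The fits were run on simulated data with known shifts and independent noise. That simulation had no pairing of replicates and no genes at a shared value, so it does not bear on these traits of the data. The study calls the replicates biological triplicates, and the labels do not say whether the cultures were separate. The p-values therefore measure only the spread between these samples.

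The 6 genes and the lists were chosen with earlier results of these data known. Named besides the 6 are other nuclear envelope genes that passed a test (at most 4 a list), the neighbour with the highest mean ratio, and the 2 most similar genes. The 39 genes are those of 40 listed whose symbol matched. Contrasts of the flanks, contrasts of gene and neighbourhood between the proteins, and weighting of bins by overlap were added after the data had been seen. Alternatives were the deposited centring, no filter, a plain instead of robust fit, a replicate block, a neighbourhood of 10 kb, medians over bins, and leaving out each replicate. The refits of single bins and of the gene lists, and the comparison with the value of features without reads, were added after the data had been seen. Python 3.11.15, numpy 2.4.6, pandas 2.3.3 and matplotlib 3.10.9 were used. Sequences were read from the WBcel235 reference genome, which is the ce11 build.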

Additional observations from a re-analysis of the deposited data

Results flagged for a closer look

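For emr-1 in the intestine, the difference of gene and neighbourhood was below 0 in every BAF-1(G12T) replicate and above 0 in every BAF-1 replicate, with means of -0.76 and 2.53. The difference between the proteins was -3.29, and limma did not call it over all protein-coding genes (adjusted p = 0.986). In intestine BAF-1 only replicate 1 had the emr-1 bin above the value of bins without reads.

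For unc-84 with BAF-1, the gene ratio was above 0 in every hypodermal replicate and below 0 in every intestinal replicate, with means of 0.71 and -2.01. The difference of these means was 2.72, which the fit centred on genes tested in both tables gave as 2.62 (limma adjusted p = 0.0686). Groups of 3 samples were not screened for single outlying samples.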

How the results depend on the processing

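Of 106 refits of values called for the 6 genes, other than those leaving out a replicate, 90 kept their call, 16 lost it and 0 changed sign. Of 66 that left out a replicate, 47 kept it, 19 lost it and 0 changed sign. Of values not called, 20 of 288 refits with another setting and 26 of 234 without a replicate changed sign. The cause of these changes was not tested. Across tissues the same-numbered replicates did not deviate together (correlations -0.07, 0.09 and 0.01 for BAF-1(G12T), -0.04, 0.00 and 0.04 for BAF-1). With a replicate block the tissue comparison called 1064 genes for BAF-1(G12T), against 1975 without it, and 0 for BAF-1, against 1617. The block changed no call for a difference between the proteins. The deposited centring lay above the median centring by 0.10 in hypodermis BAF-1(G12T), 0.22 in hypodermis BAF-1 and 0.13 in intestine BAF-1(G12T), and stood at -0.17 relative to it in intestine BAF-1.

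Without the filter on low values, limma called 835 bound genes in hypodermis BAF-1(G12T) instead of 16878, 7519 in intestine BAF-1(G12T) instead of 13678, 350 between tissues for BAF-1(G12T) instead of 1975, and 1 between the proteins in the intestine instead of 0. For BAF-1 between tissues the count was 2952 with the deposited centring and 2467 for genes with an adjusted p in the table. With a neighbourhood of 10 kb, 2867, 1146, 456 and 1944 genes differed from their neighbourhood in hypodermis BAF-1(G12T), hypodermis BAF-1, intestine BAF-1(G12T) and intestine BAF-1, instead of 4522, 2382, 1748 and 3792, and the flanks differed for 4966 genes in intestine BAF-1(G12T), instead of 7936.

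Leaving out a replicate, called genes ranged between 11831 and 18854 in hypodermis BAF-1(G12T), 0 and 13617 in hypodermis BAF-1, 5861 and 12434 in intestine BAF-1(G12T), and 0 and 24873 in intestine BAF-1. Called bins ranged between 13196 and 18322, 2538 and 14834, 6222 and 15209, and 8103 and 24969 in the same order. Genes differing from their neighbourhood ranged between 1237 and 5349, 1053 and 1674, 381 and 1858, and 740 and 6166, and genes with differing flanks between 4565 and 7911 in intestine BAF-1(G12T) and 4202 and 10866 in intestine BAF-1. Between tissues the range was 0 to 2715 for BAF-1(G12T) and 0 to 5648 for BAF-1.

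Gene ratios that changed sign were, in hypodermis BAF-1(G12T), those of lem-2 (0.16 without the filter) and unc-84 (0.29 without the filter, 0.0884 with the deposited centring, 0.0374 for genes with an adjusted p), in hypodermis BAF-1 that of lmn-1 (0.18 without the filter, 0.0796 with the deposited centring), and in intestine BAF-1(G12T) that of baf-1 (0.32 without the filter). Gene minus neighbourhood changed sign with a neighbourhood of 10 kb for lmn-1 (-0.14), lem-2 (-0.29) and unc-84 (0.39) in hypodermis BAF-1(G12T) and unc-83 (0.0942) in intestine BAF-1. With the median over bins it did so for emr-1 in hypodermis BAF-1(G12T) (-0.45) and hypodermis BAF-1 (-0.33), and for lmn-1 (0.16) and lem-2 (0.14) in intestine BAF-1(G12T). With bins weighted by overlap it did so for unc-84 (0.16) in hypodermis BAF-1(G12T) and for baf-1 (1.39) and lmn-1 (0.23) in intestine BAF-1(G12T), and with bins that have an adjusted p for lmn-1 (0.0820) in intestine BAF-1(G12T) and unc-83 (0.11) in intestine BAF-1.

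Without a replicate, the gene ratios in hypodermis BAF-1(G12T) ranged between -2.36 and 0.47 for baf-1, -1.01 and 0.0865 for lmn-1, -1.24 and 0.21 for emr-1, -0.51 and 0.41 for lem-2, and -0.37 and 0.20 for unc-84. In hypodermis BAF-1 they ranged between -0.0328 and 1.61 for baf-1 and -0.57 and 0.39 for lmn-1, and in intestine BAF-1(G12T) between -2.0 and 0.68 for baf-1. Gene minus neighbourhood in hypodermis BAF-1(G12T) ranged between -0.43 and 0.73 for lmn-1, -0.71 and 0.53 for emr-1, -0.0557 and 0.45 for lem-2, and -0.40 and 0.31 for unc-84. It ranged between -0.22 and 0.38 for emr-1 in hypodermis BAF-1, and in intestine BAF-1(G12T) between -1.35 and 0.92 for baf-1, -0.30 and 0.42 for lmn-1, and -0.24 and 0.19 for lem-2. For unc-83 in intestine BAF-1 it ranged between -0.33 and 0.0265. The difference between hypodermis and intestine for baf-1 with BAF-1(G12T) ranged between -2.10 and 1.21, and that of gene minus neighbourhood between the proteins for emr-1 in the hypodermis between -0.85 and 0.39. The deposited ratios carry no read depth, so precision was read from the replicates alone.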
